A study of Mus musculus with 12 samples.

Results

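The mitochondrial solute carriers were examined as a group in the kidneys of mice with polycystic kidney disease (PKD). They were taken by symbol as every protein-coding gene named *Slc25a* with a number, plus *Mpc1*, *Mpc2*, *Ucp2* and *Ucp3*. This gave 51 genes (47 of them *Slc25a* genes) of the 35275 genes in the table. Kidney poly(A) RNA was sequenced from 12 mice at 6 months of age in 3 groups of 4, each with 2 males and 2 females. All 3 groups were of the C57BL/6J strain, and WT mice carried neither mutation. RC/RC mice carry the R3277C missense allele of *Pkd1* on both chromosomes, a hypomorphic allele that gives slowly progressive cystic disease, in every cell from development onward. RC/RC:*Casp1*KO mice carry the same 2 *Pkd1* alleles and a homozygous deletion (Del3) in *Casp1*, made with TALENs and present in all tissues, that takes out the codon of the catalytic cysteine of this inflammasome protease. The knockout was therefore studied on the RC/RC background only, with a single deletion allele. Each mouse had between 18019819 and 24869454 reads on genes.

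Most carriers of this family sit in the inner mitochondrial membrane, which small metabolites do not cross unaided. Each carrier swaps or moves a few related compounds between the cytosol and the matrix. The adenine nucleotide and phosphate carriers supply and export the substrates and product of ATP synthesis, others carry the intermediates of the tricarboxylic acid (TCA) cycle, amino acids, carnitine esters, cofactors or iron, and uncoupling proteins form a separate branch. The pyruvate carrier, built from *Mpc1* and *Mpc2*, is unrelated in sequence and brings pyruvate to the matrix. Tubular epithelium of the kidney, the proximal tubule above all, is rich in mitochondria and depends on their ATP for reabsorption. The family also holds members that act elsewhere, such as *Slc25a17* in peroxisomes and *Slc25a46* on the outer mitochondrial membrane.

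The labels were checked first on the genes that define the groups. Values by mouse are given throughout in a fixed order, WT mice B6_2, B6_3, B6_4 and B6_6, RC/RC mice RC105, RC139, RC140 and RC143, and RC/RC:*Casp1*KO mice Del3_60, Del3_105, Del3_42 and Del3_70. The unit is CPM, the reads of a gene relative to the total of its library after scaling with TMM factors. *Casp1*, the deleted protease gene, was at 2.05, 1.29, 1.31 and 1.41 CPM in WT, at 3.33, 3.86, 4.24 and 2.62 CPM in RC/RC and at 0.382, 0.667, 0.665 and 1.06 CPM in RC/RC:*Casp1*KO. Every RC/RC:*Casp1*KO mouse was below every RC/RC and WT mouse. *Pkd1*, in which the RC allele changes 1 codon and removes no exon, ranged from 40.2 to 87.2 CPM over the 12 mice, and its counts check no label. The kidney origin was plain from the markers, since *Slc34a1* of the proximal tubule was at 2048 to 6844 CPM and *Umod* of the thick ascending limb at 2369 to 5106 CPM.

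One library stood apart. RC/RC mouse RC139 had a summed level of 4 adipocyte genes of 316 CPM, against 0.161 to 38.4 CPM in the other 11 mice. *Cidec*, with the most reads of the 4, was at 155 CPM in RC139, and *Ucp1* and *Cidea*, which mark brown adipocytes, were at 26.3 and 34.9 CPM there. Both of these were at or under 2.53 CPM in all other mice. None of the 4 adipocyte markers was at 0 in all mice, and skeletal muscle markers summed to at most 0.529 CPM in any library. Calls of members, list genes and markers in comparisons with RC/RC are given below with and without it.

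Expression of *Xist*, transcribed from the inactive X chromosome, split each group evenly. In each group 2 mice had 5280 to 17320 *Xist* counts and 0 to 3 counts of the Y-linked gene *Ddx3y*. The remaining mice had 1 to 18 *Xist* counts and 1029 to 1676 *Ddx3y* counts. The mice with *Xist* reads were B6_2, B6_3, RC105, RC139, Del3_60 and Del3_105, so that each group was balanced. Libraries of a group that were alike in *Xist* differed less from each other (chi-square per degree of freedom 15.7 to 69.7 over 6 pairs) than most that were not (67.1 to 128 over 12 pairs). The table's columns carry no sex, no fit or test was made by it, and its part in the results was not tested. Where values are given below by the *Xist* split, they describe 2 mice beside 2 and no more.

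Promoter sequences were available for 40 of the 51 members and for 5 of the 8 that were called in a comparison. Shown are the 300 bases around an annotated start (250 before it and 50 after, RefSeq, GRCm38.p6, the build of the table) of 4 called members, printed 5′ to 3′ on the strand of the gene. For *Mpc1* and *Slc25a25*, which have further annotated starts, the start with a motif match is shown. Capitals mark a match to CCGGAAG, the core bound by ETS-family factors, searched on both strands.
Slc25a24 promoter, chr3:109122899-109123198, plus strand: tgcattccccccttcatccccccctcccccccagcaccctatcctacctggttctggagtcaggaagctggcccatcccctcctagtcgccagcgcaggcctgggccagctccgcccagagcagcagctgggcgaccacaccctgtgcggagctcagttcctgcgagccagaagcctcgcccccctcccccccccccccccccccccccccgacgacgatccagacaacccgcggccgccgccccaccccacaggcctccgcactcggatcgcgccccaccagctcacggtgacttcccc
Slc25a25 promoter, chr2:32451421-32451720, minus strand: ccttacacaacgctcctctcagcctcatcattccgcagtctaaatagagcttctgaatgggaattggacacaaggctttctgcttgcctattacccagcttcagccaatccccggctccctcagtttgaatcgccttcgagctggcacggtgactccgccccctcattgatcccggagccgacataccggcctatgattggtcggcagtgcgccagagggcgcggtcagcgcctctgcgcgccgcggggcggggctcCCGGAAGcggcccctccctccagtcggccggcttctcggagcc
Mpc1 promoter, chr17:8283537-8283836, plus strand: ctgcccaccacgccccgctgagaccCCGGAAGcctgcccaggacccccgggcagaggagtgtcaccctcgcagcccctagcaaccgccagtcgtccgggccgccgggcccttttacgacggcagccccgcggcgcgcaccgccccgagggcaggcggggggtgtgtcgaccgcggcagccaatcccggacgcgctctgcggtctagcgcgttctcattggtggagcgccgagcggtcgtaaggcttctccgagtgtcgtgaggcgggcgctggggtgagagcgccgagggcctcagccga
Ucp2 promoter, chr7:100493108-100493407, plus strand: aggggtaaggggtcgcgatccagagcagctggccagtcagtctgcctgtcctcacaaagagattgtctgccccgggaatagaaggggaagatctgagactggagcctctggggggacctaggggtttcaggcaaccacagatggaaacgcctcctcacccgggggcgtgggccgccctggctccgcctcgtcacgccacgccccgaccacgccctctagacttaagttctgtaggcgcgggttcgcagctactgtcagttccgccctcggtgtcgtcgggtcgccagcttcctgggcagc
The CCGGAAG match was present in 20% of the 40 members and in 9.93% of all 27025 genes with such a sequence, and among the called members in *Mpc1* and *Slc25a25* only. The E-box CACGTG was in 17.5% of the members and in 8.09% of all genes, and in none of the 5 called members. Neither TCAAGGTCA, the extended half-site of estrogen-related receptors, nor GCGCATGCG, the site of NRF1, was found in any member (0.466% and 1.95% of all genes). None of these last 3 motifs occurs in the printed sequences. A match of letters is not a bound site, and its absence from this window says nothing of the factor.

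Levels in WT kidney covered a wide range. Genes were compared with each other per length, as FPKM computed from the counts and the table's gene lengths. *Slc25a5* (ANT2, the ADP/ATP carrier of most tissues) came first at 893 ± 168 FPKM (SD, n = 4 mice), and its lowest WT mouse lay above the highest WT mouse of every other member. Next were *Slc25a39*, a glutathione carrier, at 357 ± 7.10 FPKM and *Slc25a3*, the phosphate carrier, at 254 ± 45.2 FPKM. *Slc25a4* (ANT1) at 187 ± 58.7 FPKM overlapped both *Slc25a3* above it and *Slc25a10*, the dicarboxylate carrier, at 178 ± 26.2 FPKM below it. *Slc25a11*, the oxoglutarate/malate carrier, at 103 ± 11.1 FPKM could not be told from *Mpc2* at 102 ± 13.9 FPKM. Below rank 8 each member overlapped its neighbour down to the last tested one, *Slc25a43* at 0.467 ± 0.0888 FPKM.

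**Figure D1:**
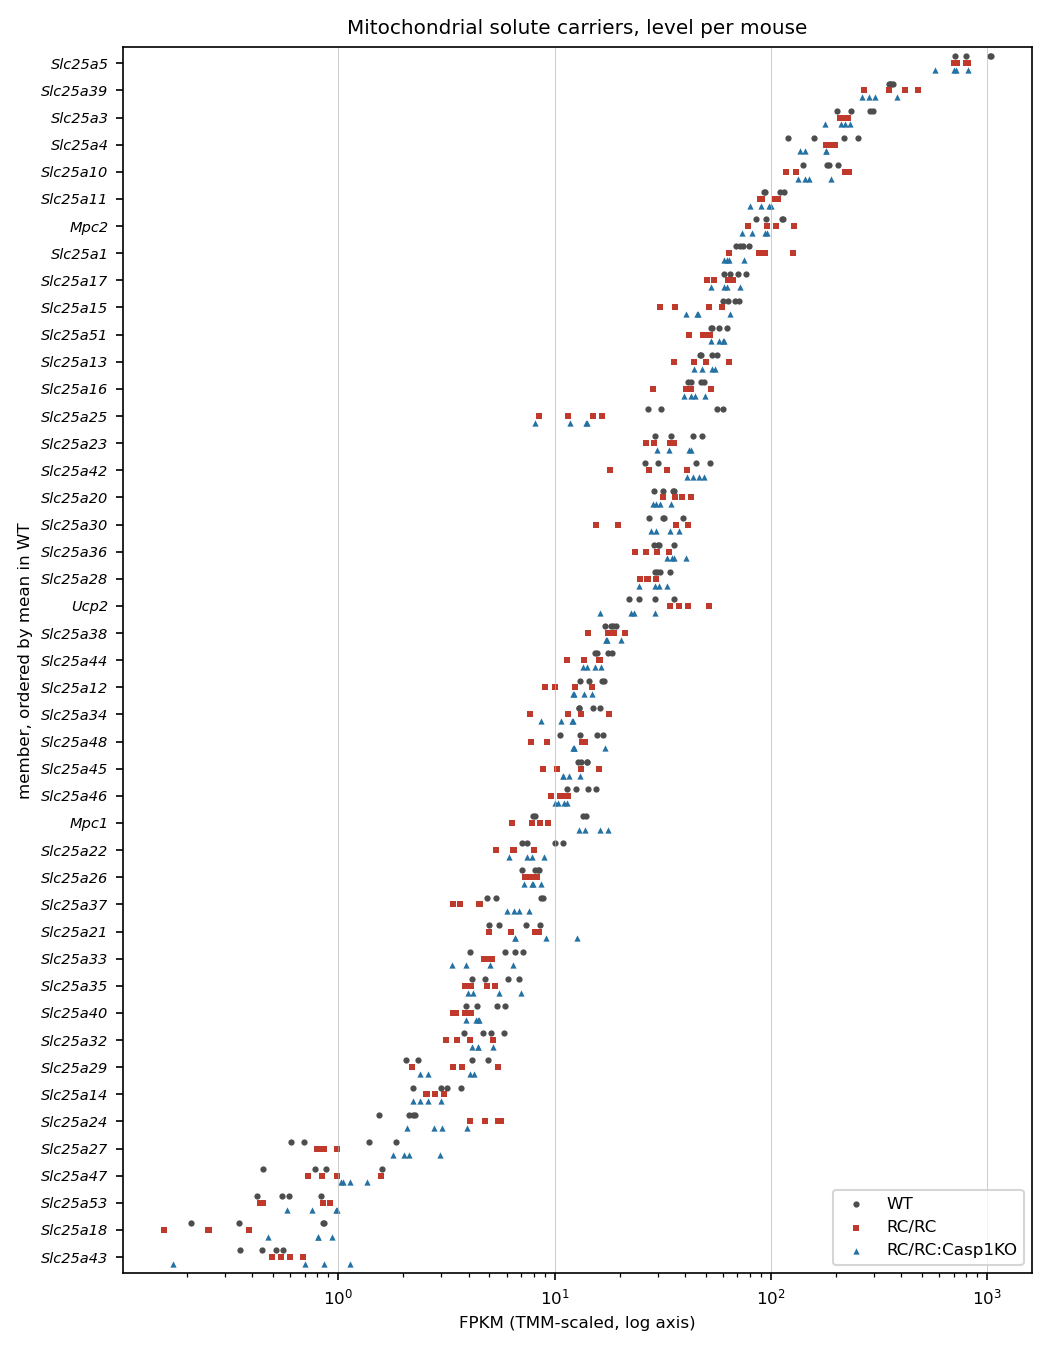
FPKM of 45 of the 46 members that entered at least 1 fit (log axis) in each mouse, with members ordered by their mean in WT and circles for WT, squares for RC/RC, triangles for RC/RC:*Casp1*KO. *Slc25a5* is highest in each group, the points of the 3 groups overlap for most members, and *Slc25a25* and *Slc25a24* show the largest shifts of RC/RC from WT.

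The 6 most abundant members held 52.0% to 59.6% of the carrier reads of a mouse, and none of them was called in a comparison. *Slc25a5* had 757 ± 53.9 FPKM in RC/RC and 701 ± 96.9 FPKM in RC/RC:*Casp1*KO (n = 4 each), overlapping WT in both. The carriers together took 0.547% to 0.654% of the reads in WT, 0.562% to 0.607% in RC/RC and 0.535% to 0.618% in RC/RC:*Casp1*KO, ranges that overlap. Within WT, *Slc25a4* was at 485 and 419 CPM in the mice with *Xist* reads and at 232 and 306 CPM in the remaining pair. Among the RC/RC:*Casp1*KO mice it was at 344 and 344 CPM in those with *Xist* reads and at 275 and 262 CPM in the remaining pair, and in RC/RC at 361 and 382 CPM against 375 and 346 CPM.

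Of the 51 members, 46 had enough reads for at least 1 of the 3 comparisons and 45 for all of them. Those left out of every fit were *Slc25a2*, with at most 5 counts in a mouse, *Slc25a31*, the ADP/ATP carrier of the germ line, also with at most 5, *Slc25a41* with at most 1, *Slc25a54* with at most 2, and *Ucp3* with at most 27. *Slc25a41* and *Slc25a54* had 0 counts in all 4 WT mice, which allows up to 0.141 to 0.151 CPM per library, the value of 3 counts. The 27 counts of *Ucp3*, an uncoupling protein of muscle and brown fat, were in RC139, the library with adipocyte transcripts. *Slc25a18* was too low for the comparison of RC/RC with WT and entered both other comparisons.

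The effect of the cystic disease was addressed by comparing RC/RC with WT kidneys. *Slc25a24* rose 2.44-fold, while *Slc25a25* and *Slc25a37* fell to 0.296 and 0.580 of their WT levels. The first pair are both calcium-regulated carriers of ATP-Mg in exchange for phosphate, which set the adenine nucleotide pool of the matrix, and they moved in opposite directions. *Slc25a37* (mitoferrin-1) imports iron for heme and iron-sulfur clusters. Of 45 members tested, 1 was called higher and 3 lower (2.22% and 6.67%), against 9.76% and 3.18% of all 15243 genes tested. The median log2 fold change was −0.20 over the members and −0.02 over all genes, and 33 of the 45 members had a negative sign.

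*Slc25a24* (ENSMUSG00000040322, chr3:109123149-109168457, plus strand, mm10) was at 7.77, 7.62, 7.29 and 5.28 CPM in WT, at 19.4, 18.7, 16.3 and 13.9 CPM in RC/RC and at 9.51, 10.4, 7.15 and 13.5 CPM in RC/RC:*Casp1*KO. The RC/RC mice lay above every mouse of both other groups. Its log2 fold change in RC/RC against WT was 1.29 (SE 0.17, edgeR adjusted p = 0.00184), and 1.22 without RC139 (edgeR adjusted p = 0.00553). In RC/RC:*Casp1*KO compared with RC/RC it was lower by a log2 fold change of −0.76 (SE 0.19, edgeR adjusted p = 0.0361). That call was lost without any one of RC139, RC140, Del3_60, Del3_105 or Del3_42, when edgeR adjusted p was 0.0634 to 0.0990 and the log2 fold change −0.78 to −0.63. It was also lost with library size alone in place of TMM factors (log2 fold change −0.71, edgeR adjusted p = 0.0890). Against WT, RC/RC:*Casp1*KO was not called (log2 fold change 0.54, edgeR adjusted p = 0.189). Of the same calcium-regulated branch, *Slc25a23* was called in no comparison (log2 fold change −0.31 in RC/RC against WT, edgeR adjusted p = 0.265).

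*Slc25a25* (ENSMUSG00000026819, chr2:32414487-32451445, minus strand, mm10) was at 95.4, 212, 110.0 and 198 CPM in WT, at 30.0, 52.9, 40.8 and 58.5 CPM in RC/RC and at 49.8, 28.5, 49.3 and 41.5 CPM in RC/RC:*Casp1*KO. All 8 mutant mice were below all WT mice, and the mutant groups overlapped each other. The log2 fold change was −1.76 in RC/RC against WT (SE 0.30, edgeR adjusted p = 0.00616, and −1.85 without RC139, edgeR adjusted p = 0.0163). It was −1.86 in RC/RC:*Casp1*KO against WT (SE 0.29, edgeR adjusted p = 0.0189). This was the single member called in the latter comparison, at 1 of 46 lower (2.17%) and 0 higher, against 0.893% and 1.13% of all 15346 genes. At an unadjusted p under 0.05, 7 of the 46 passed there, against 21.8% of all genes. DESeq2 called 1 lower and 0 higher, against 3.28% and 4.44% of all genes. Without Del3_105, Del3_70 or B6_6 the call was lost (edgeR adjusted p = 0.0535 to 0.0597, log2 fold change −1.85 to −1.71). The gene overlaps *Naif1* on the opposite strand by 989 bases, with a mean of 155 counts on *Naif1*, and the sources used here do not say whether counting used strand.

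*Slc25a37* (ENSMUSG00000034248, chr14:69241848-69285112, minus strand, mm10) was at 28.9, 31.8, 51.0 and 52.1 CPM in WT, at 26.7, 21.7, 20.1 and 26.6 CPM in RC/RC and at 45.0, 35.8, 40.5 and 38.5 CPM in RC/RC:*Casp1*KO. The RC/RC mice were below all others, but 2 WT mice, B6_2 and B6_3 (those with *Xist* reads), came within a few CPM of them. In RC/RC against WT the log2 fold change was −0.79 (SE 0.21, edgeR adjusted p = 0.0413). The call was lost without RC105, RC139, RC140, B6_4 or B6_6 (edgeR adjusted p = 0.0557 to 0.112, log2 fold change −0.86 to −0.65). It was also lost with library size alone in place of TMM factors (log2 fold change −0.69, edgeR adjusted p = 0.0716). In RC/RC:*Casp1*KO compared with RC/RC the gene rose by a log2 fold change of 0.74 (SE 0.13, edgeR adjusted p = 0.0113) and was still called without RC139 (0.72, edgeR adjusted p = 0.0291). Between RC/RC:*Casp1*KO (39.9 ± 3.87 CPM) and WT (41.0 ± 12.3 CPM, SD, n = 4 each) there was no call. Both other comparisons share the RC/RC mice.

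Mitoferrin-1 is best known from red cell precursors, so markers of that lineage were set beside it. All 5 erythroid genes tested (*Alas2*, *Hba-a1*, *Hba-a2*, *Hbb-bs* and *Hbb-bt*, of 6 listed) fell in RC/RC against WT, and none of them was called in RC/RC:*Casp1*KO compared with RC/RC. The sum of the 6 was 901, 822, 649 and 477 CPM in WT, then 126, 269, 261 and 259 CPM in RC/RC and 348, 258, 395 and 217 CPM in RC/RC:*Casp1*KO, with most reads on *Hbb-bs* and no gene at 0 in all mice. *Alas2*, the erythroid enzyme of heme synthesis, had a log2 fold change of −2.22 in RC/RC against WT (edgeR adjusted p = 0.00111). In RC/RC:*Casp1*KO against WT it was −1.37 (edgeR adjusted p = 0.00852). There, 4 of the 5 tested genes were called lower (*Alas2*, *Hba-a1*, *Hbb-bs* and *Hbb-bt*). Within WT the mice highest in *Slc25a37* were the lowest in the erythroid sum, and the other pair were the mice with *Xist* reads. Within RC/RC:*Casp1*KO the 2 mice highest in *Slc25a37* (Del3_60 and Del3_42) were also the highest in that sum. The part of these cells in the *Slc25a37* result was not tested. In whole-kidney RNA, fewer cells of a type and less RNA per cell cannot be told apart.

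**Figure D2:**
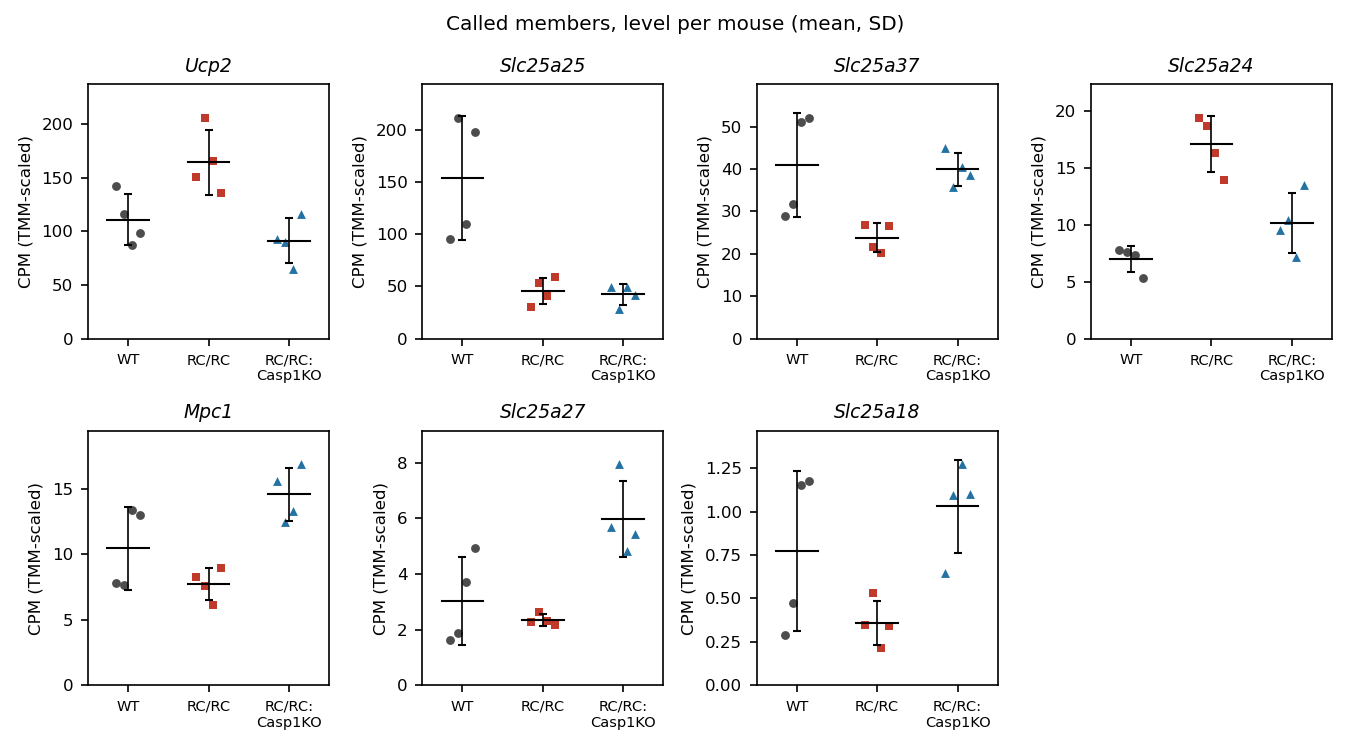
CPM in each mouse for 7 members called in at least 1 comparison, with a linear axis from 0, a horizontal line at the group mean and bars of 1 SD (n = 4). RC/RC squares are above both other groups for *Slc25a24* and below both for *Slc25a37*, and *Slc25a25* is low in both mutant groups.

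The effect of removing Caspase-1 was addressed by comparing RC/RC:*Casp1*KO with RC/RC kidneys. *Slc25a27*, *Mpc1* and *Slc25a37* rose 2.54-fold, 1.87-fold and 1.67-fold, and *Slc25a24* and *Ucp2* fell to 0.591 and 0.550 of their RC/RC levels. Of 46 members tested, 4 were called higher and 2 lower (8.70% and 4.35%), against 7.23% and 4.41% of all 15428 genes tested. The shares are near those of all genes, and 1 of the 4 higher calls, *Slc25a18*, passed the filter on low counts only through the group in which it is high. The median log2 fold change was 0.07 over the members and −0.03 over all genes, and 28 of 46 had a positive sign. Without RC139, 4 of 46 members were called higher and 0 lower here, against 3.93% and 0.864% of all genes. In RC/RC against WT without it, 1 of 46 was higher and 2 lower, against 6.45% and 1.77% of all genes.

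*Ucp2* (ENSMUSG00000033685, chr7:100493337-100502020, plus strand, mm10), an uncoupling protein found in many tissues and in immune cells, was at 142, 116, 87.6 and 98.4 CPM in WT, at 150.5, 206, 166 and 136 CPM in RC/RC and at 93.0, 89.9, 64.9 and 116 CPM in RC/RC:*Casp1*KO. Every RC/RC mouse was above every RC/RC:*Casp1*KO mouse, and WT overlapped both. The log2 fold change in RC/RC:*Casp1*KO compared with RC/RC was −0.86 (SE 0.19, edgeR adjusted p = 0.0246). It lost the call without RC139, RC140, Del3_60 or Del3_105 (edgeR adjusted p = 0.0604 to 0.0733, log2 fold change −0.87 to −0.71). With library size alone in place of TMM factors the log2 fold change was −0.81, without a call (edgeR adjusted p = 0.0573). In RC/RC against WT it was 0.57 (edgeR adjusted p = 0.0721). Of the uncoupling branch, *Slc25a14* and *Slc25a30* were called in no comparison. Per length, *Slc25a30* (32.6 ± 4.88 FPKM in WT) and *Ucp2* (27.8 ± 5.93 FPKM, SD, n = 4 each) overlapped.

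*Slc25a24* and *Ucp2* stood beside shifts in the markers of inflammatory, stromal and injured cells. Of 6 macrophage genes tested (7 listed), *C1qa*, *C1qb*, *C1qc*, *Cd14* and *Cd68* rose in RC/RC against WT, and *C1qa*, *C1qb* and *Cd14* fell in RC/RC:*Casp1*KO compared with RC/RC. Without RC139 the calls of *C1qa*, *C1qb* and *Cd14* in the latter comparison were lost (edgeR adjusted p = 0.119, 0.109 and 0.0699). *Csf1r*, a receptor of macrophage growth, was not called and had the opposite sign in the latter comparison (log2 fold change 0.15, edgeR adjusted p = 0.629), at 135, 95.2, 83.6 and 84.7 CPM in RC/RC and 136, 115, 81.7 and 110.9 CPM in RC/RC:*Casp1*KO. The sum of these 6 was 157, 134, 138 and 131 CPM in WT, then 381, 347, 303 and 277 CPM in RC/RC and 216, 199.9, 149 and 309.7 CPM in RC/RC:*Casp1*KO, with most reads on *Csf1r*. All 5 fibroblast genes rose in RC/RC against WT, and *Col1a1*, *Col3a1* and *Dcn* fell in RC/RC:*Casp1*KO compared with RC/RC. In the latter comparison the calls of *Col1a1* and *Col3a1* were lost without RC139 (edgeR adjusted p = 0.0909 and 0.0834), and that of *Dcn* was kept (edgeR adjusted p = 0.00967). The sum of the 5 fibroblast genes was 225, 157, 186 and 225 CPM in WT, then 885, 1431, 796 and 607 CPM in RC/RC and 249, 360.3, 241 and 536 CPM in RC/RC:*Casp1*KO. All 4 genes of injured tubules (*Havcr1*, *Krt20*, *Lcn2*, *Sox9*) rose in RC/RC against WT and none was called in RC/RC:*Casp1*KO compared with RC/RC. Their sum was 2.76 to 6.58 CPM in WT and 97.2 to 193 CPM in RC/RC. The same sum was 15.9, 27.7, 12.1 and 113 CPM in RC/RC:*Casp1*KO, and mouse Del3_70 was the highest of its group in *Slc25a24*, *Ucp2* and all 3 of these sums. All 4 T cell and all 4 B cell genes rose in RC/RC against WT, and *Cd79b* alone of the 8 fell in RC/RC:*Casp1*KO compared with RC/RC. That lower call of *Cd79b* was lost without RC139 (edgeR adjusted p = 0.128). The fibroblast gene *Dcn* was still higher in RC/RC:*Casp1*KO than in WT. No marker analysed of these types was at 0 in all mice (1 listed macrophage gene was not analysed here), and their part in the results for the carriers was not tested.

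**Figure D3:**
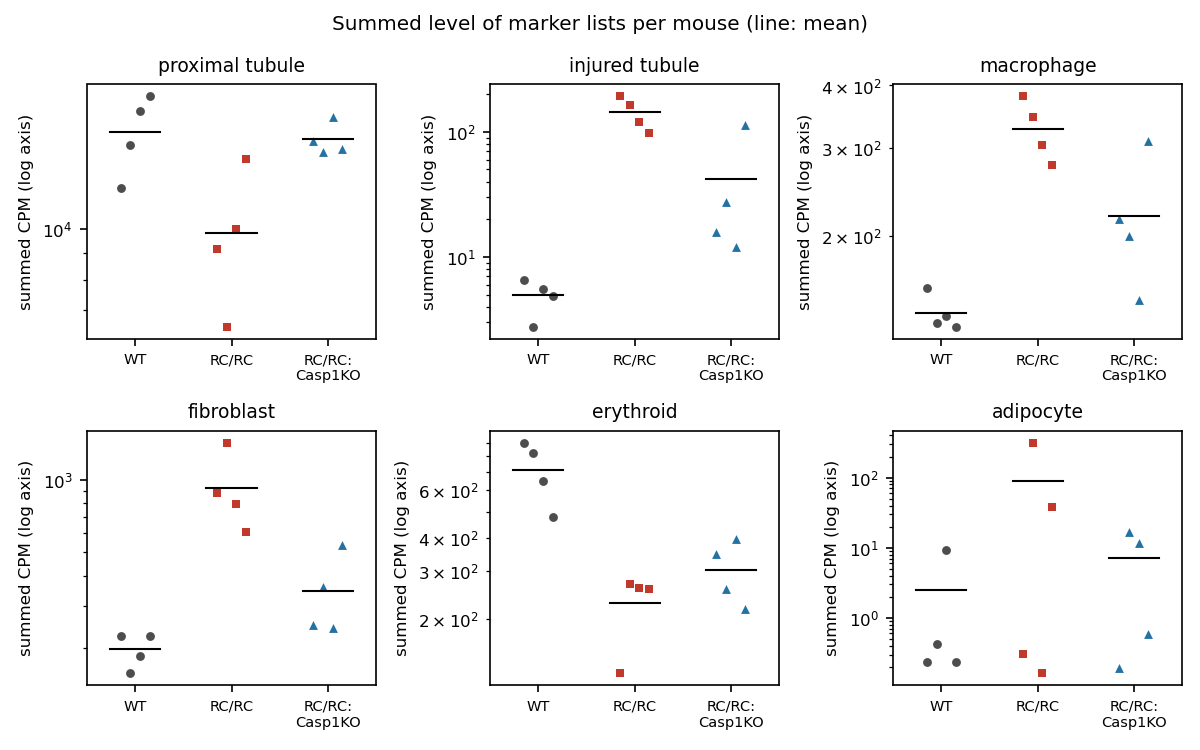
Summed CPM of 6 marker lists in each mouse (log axis, horizontal line at the group mean, n = 4 per group). Macrophage, fibroblast and injured-tubule sums are highest in RC/RC, the erythroid sum is highest in WT, and RC139 is the one high adipocyte point, at 316 CPM.

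*Mpc1* (ENSMUSG00000023861, chr17:8282904-8297661, plus strand, mm10), one of the pyruvate carrier subunits, was at 7.77, 7.62, 13.4 and 13.0 CPM in WT, at 8.26, 7.57, 6.12 and 8.96 CPM in RC/RC and at 15.6, 12.5, 13.3 and 16.9 CPM in RC/RC:*Casp1*KO. All RC/RC:*Casp1*KO mice were above all RC/RC mice, and WT fell into a lower pair (the mice with *Xist* reads) and a higher pair. The log2 fold change in RC/RC:*Casp1*KO compared with RC/RC was 0.90 (SE 0.16, edgeR adjusted p = 0.0130, and 0.91 without RC139, edgeR adjusted p = 0.0302). Its partner *Mpc2* (102 ± 13.9 FPKM in WT, against 10.9 ± 3.31 FPKM for *Mpc1*) was at 285, 248, 291 and 221 CPM in RC/RC:*Casp1*KO and 237, 290.1, 385 and 319 CPM in RC/RC and was called in no comparison.

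The *Mpc1* value is uncertain because of a near copy. The pseudogene *Mpc1-ps* (chromosome 12, 110858565 to 110858894, minus strand) matches 329 of 330 bases of the *Mpc1* coding sequence, beginning at the start codon, in GENCODE transcripts of mouse. The bases around the one difference, G41A counted from 1 at the A of the start codon with *Mpc1* first, are shown with the differing base in capitals.
Mpc1: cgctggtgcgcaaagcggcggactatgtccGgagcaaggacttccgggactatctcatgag
Mpc1-ps: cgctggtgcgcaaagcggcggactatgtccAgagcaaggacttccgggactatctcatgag
Reads from this stretch can be assigned to either gene unless they span the difference or extend past the pseudogene. *Mpc1-ps* held more counts than *Mpc1* on average, 312.6 against 235.4, and was not called (14.5 ± 3.72 CPM in RC/RC and 13.9 ± 2.28 CPM in RC/RC:*Casp1*KO, edgeR adjusted p = 0.836). The sum of both was 21.3, 24.3, 29.2 and 29.1 CPM in WT, then 18.7, 20.6, 21.4 and 28.1 CPM in RC/RC and 31.4, 23.4, 28.9 and 30.1 CPM in RC/RC:*Casp1*KO. For the sum, the mutant groups overlapped, at 22.2 ± 4.12 CPM in RC/RC and 28.5 ± 3.50 CPM in RC/RC:*Casp1*KO (SD, n = 4 each). An antisense transcript, *4930506C21Rik*, overlaps *Mpc1* as well, with a mean of 31.9 counts.

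*Slc25a27* (ENSMUSG00000023912, chr17:43641900-43667015, minus strand, mm10) (UCP4), an uncoupling protein relative known mainly from brain, was at 1.62, 1.86, 3.72 and 4.95 CPM in WT, at 2.26, 2.65, 2.31 and 2.14 CPM in RC/RC and at 5.69, 7.96, 4.82 and 5.43 CPM in RC/RC:*Casp1*KO. The RC/RC:*Casp1*KO mice were all above RC/RC, and the WT mice again split into a low pair with *Xist* reads and a higher pair, the highest inside the RC/RC:*Casp1*KO range. The log2 fold change in RC/RC:*Casp1*KO compared with RC/RC was 1.34 (SE 0.21, edgeR adjusted p = 0.00827, and 1.43 without RC139, edgeR adjusted p = 0.0204). Against WT it was 0.98 and not called (edgeR adjusted p = 0.172).

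*Slc25a18* (ENSMUSG00000004902, chr6:120773768-120793982, plus strand, mm10), the second mitochondrial glutamate carrier, was near the limit of the data. Its counts were 6, 10, 23 and 25 in WT, 9, 10, 4 and 8 in RC/RC and 17, 23, 23 and 24 in RC/RC:*Casp1*KO. The lower pair of WT counts came from the mice with *Xist* reads. The lowest RC/RC:*Casp1*KO mouse had 0.649 CPM and the highest RC/RC mouse 0.529 CPM. It passed the filter on low counts only through the RC/RC:*Casp1*KO mice, so that its entry into the fit depended on the group in which it is high. The fitted log2 fold change was 1.50 (SE 0.36, edgeR adjusted p = 0.0317, and 1.75 without RC139, edgeR adjusted p = 0.0438). With a filter of at least 1 count over both groups, edgeR adjusted p was 0.0492. The call was lost without RC140, RC143, Del3_105, Del3_42 or Del3_70 (edgeR adjusted p = 0.0526 to 0.0918, log2 fold change 1.33 to 1.49). It was also lost in 1 fit of all 12 mice (log2 fold change 1.51, edgeR adjusted p = 0.0525). A transcript of the gene also shares stretches of 170 to 190 bases at 95% identity or more with abundant transcripts such as *Dld* and *Immt*, so that reads from these could have been counted on it. Such stretches, of 100 bases or more on either strand, were found for 37 of the 51 members, and for 31 the matching gene was in the table. *Slc25a25*, *Slc25a37* and *Ucp2* were among these, with matches on the opposite strand to *Naif1* (404 bases, 155 counts on average) for *Slc25a25* and to *Dnajb13* (1095 bases, 6.83 counts) for *Ucp2*. *Slc25a27* had no match, and the match of *Slc25a24* was to a gene outside the table. The part of shared reads in these counts was not tested. Of the same branch, *Slc25a22*, the first glutamate carrier, and the aspartate/glutamate carriers *Slc25a12* and *Slc25a13* were called in no comparison.

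**Figure D4:**
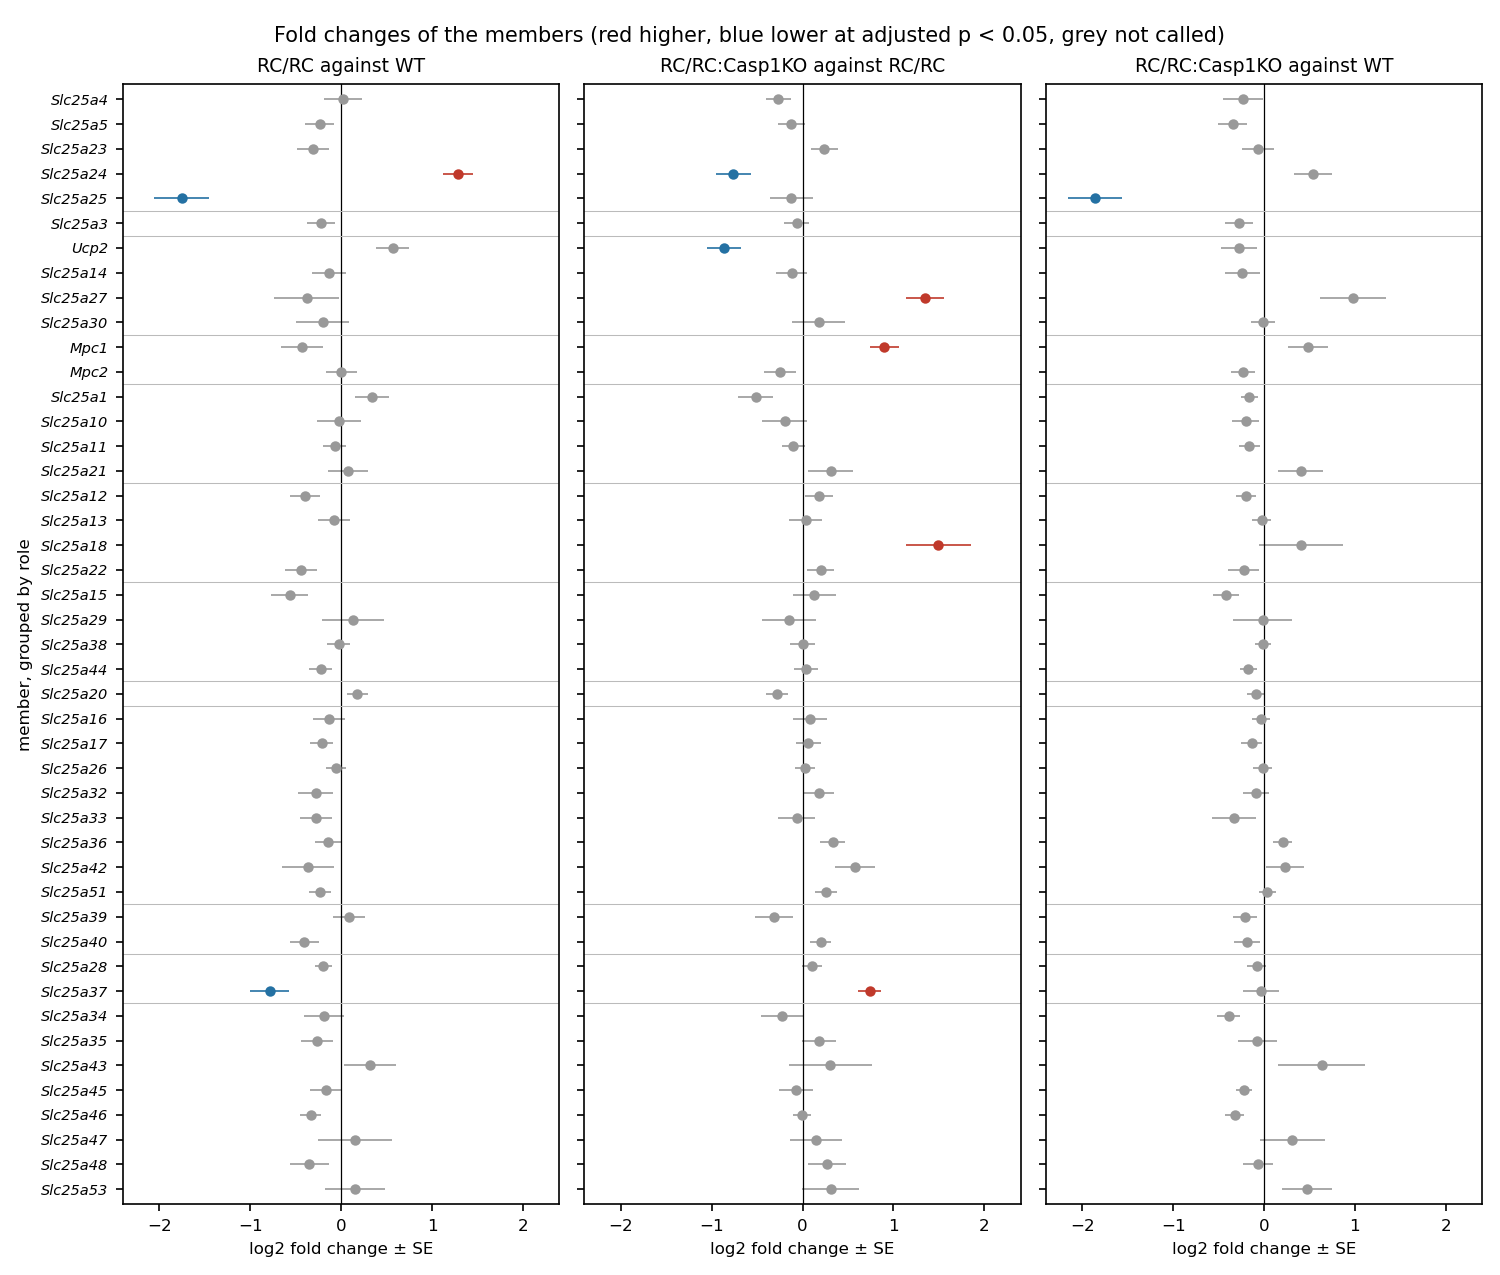
Log2 fold change with its SE for 45 tested members in the 3 comparisons, grouped by role (adenine nucleotide carriers at the top, less characterised members at the bottom) and coloured where the edgeR adjusted p was under 0.05. Most members lie within 0.5 of 0 in each panel, and those coloured are the 7 called members described.

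By role, no call was made among the di- and tricarboxylate carriers (*Slc25a1*, *Slc25a10*, *Slc25a11*, *Slc25a21*), the phosphate carrier, the carnitine carrier *Slc25a20*, the other amino acid carriers or the glutathione carriers *Slc25a39* and *Slc25a40*. Among these, *Slc25a1*, the citrate carrier that feeds fatty acid synthesis, was at 107, 213, 157 and 147 CPM in RC/RC, with the highest value in RC139, and at 116 to 132 CPM in WT. *Slc25a15*, the ornithine carrier of the urea cycle, was at 244, 235, 208 and 219 CPM in WT and at 124, 106, 179 and 204 CPM in RC/RC. Its groups did not overlap, but the difference was not called (log2 fold change −0.57, edgeR adjusted p = 0.101). Of the 9 nucleotide and cofactor carriers, the one with most reads, the NAD carrier *Slc25a51*, was at 234, 236, 255 and 278 CPM in WT, at 214, 185, 223 and 231 CPM in RC/RC and at 268, 256, 269 and 236 CPM in RC/RC:*Casp1*KO, with no overlap of RC/RC with either group and no call (edgeR adjusted p = 0.232 and 0.171). *Slc25a46*, with most reads among the members grouped as less characterised, was at 58.7 CPM in WT, then 46.5 CPM in RC/RC and 46.8 CPM in RC/RC:*Casp1*KO on average, and was not called in either mutant group against WT, with overlapping groups (edgeR adjusted p = 0.0898 and 0.139). In all, 6 of 45, 8 of 46 and 2 of 46 members had groups that did not overlap, in the order RC/RC to WT, knockout to RC/RC and knockout to WT, against 19.6%, 20.4% and 13.9% of all genes tested.

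The balance between related carriers was described by the ratio of their FPKM in each mouse. *Slc25a24* relative to *Slc25a23*, a pair of calcium-regulated carriers, was 0.0446 to 0.0727 in WT, 0.140 to 0.180 in RC/RC and 0.0615 to 0.132 in RC/RC:*Casp1*KO. RC/RC overlapped neither other group. The mitoferrin ratio, *Slc25a37* to *Slc25a28*, was 0.163 to 0.288 in WT, 0.116 to 0.180 in RC/RC and 0.199 to 0.280 in RC/RC:*Casp1*KO, without overlap of the mutant groups. The same held for *Mpc1* to *Mpc2*, at 0.0501 to 0.110 in RC/RC and 0.144 to 0.240 in RC/RC:*Casp1*KO, with the reservation on *Mpc1* reads, and for *Slc25a22* to *Slc25a18*, at 20.7 to 34.0 and 6.61 to 15.7, which rests on few reads. Ratios of *Slc25a4* to *Slc25a5*, *Slc25a12* to *Slc25a13*, *Slc25a39* to *Slc25a40* and *Slc25a36* to *Slc25a33* overlapped in all comparisons. The *Slc25a4* to *Slc25a5* ratio, for example, was 0.206 ± 0.0302 in WT, 0.252 ± 0.0260 in RC/RC and 0.228 ± 0.0232 in RC/RC:*Casp1*KO (SD, n = 4 each).

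**Figure D5:**
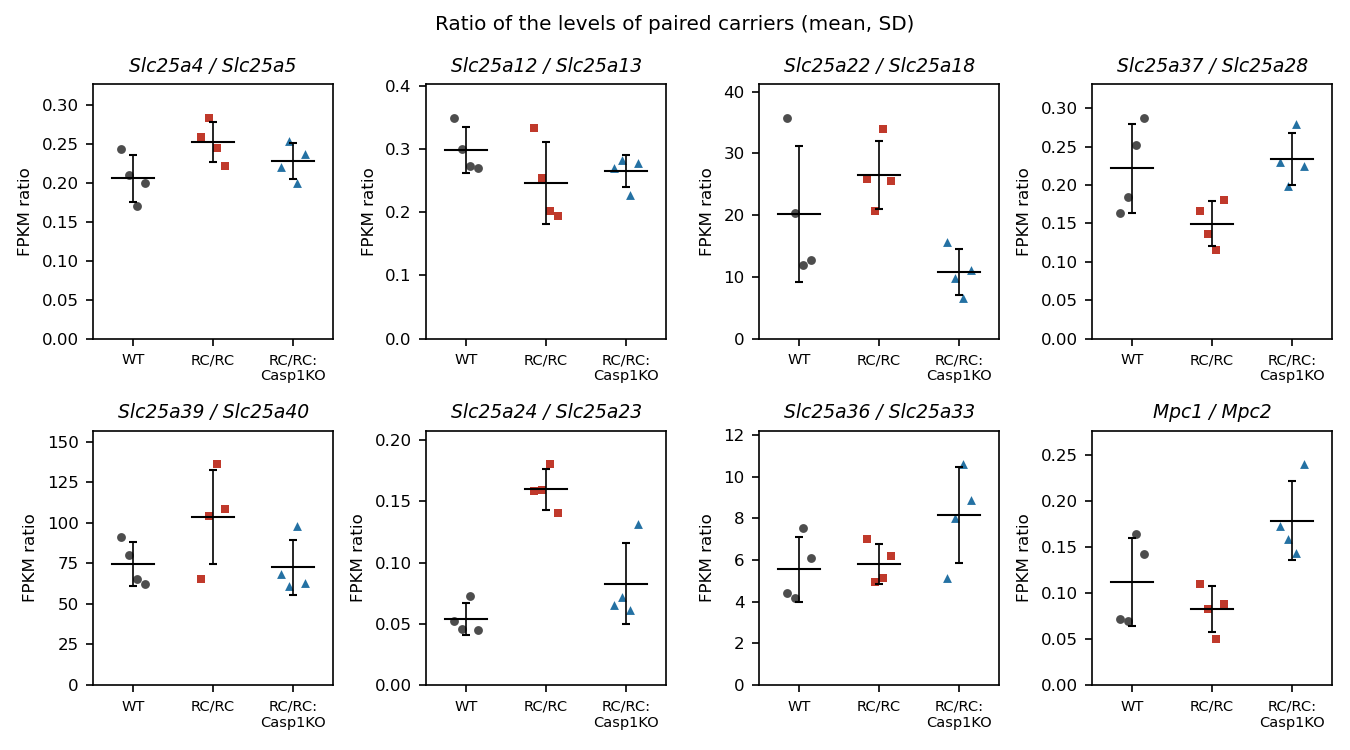
Ratio of the FPKM of 2 related carriers in each mouse for 8 pairs, with a linear axis from 0, a horizontal line at the group mean and bars of 1 SD (n = 4). The RC/RC values of *Slc25a24* / *Slc25a23* (0.140 to 0.180) are above all others, and the *Slc25a4* / *Slc25a5* values overlap in all groups.

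The enzymes that use what the carriers deliver were counted from fixed lists. None of the 18 TCA cycle enzymes, 12 genes of the pyruvate dehydrogenase complex and pyruvate carboxylase, 4 malate-aspartate shuttle enzymes, 5 carnitine shuttle genes or 12 tested mitochondrially encoded genes was called in any comparison by edgeR. At an unadjusted p under 0.05, 10, 1 and 17 of these 49 genes passed, in the order RC/RC to WT, knockout to RC/RC and knockout to WT, which is 20.4%, 2.04% and 34.7% against 29.2%, 31.7% and 21.8% of all genes. Of the 10 in the first 9 were lower, and of the 17 in the third 16. By sign, 17 of the 18 TCA cycle enzymes were lower in RC/RC than in WT, and all 18 of them and all 12 tested mitochondrially encoded genes were lower in RC/RC:*Casp1*KO than in WT. These signs are from fits with TMM factors. With library size alone the median over all genes moved from 0.01 to 0.14 in RC/RC:*Casp1*KO against WT, and 13 of 46 carriers changed sign there. In the same order, DESeq2 called 4 (all lower, among them *Dlat*, *Ogdh* and *Pdha1*), 1 (*Cpt1b*, higher) and 7 (all lower, among them *Pdk4* and *mt-Nd2*). By DESeq2, 10.9% of all genes were higher and 5.59% lower in the first, 10% and 8.12% in the second, and 4.44% and 3.28% in the third. Among 10 regulators of mitochondrial biogenesis, *Ppara*, a receptor that drives fatty acid oxidation genes, and the coactivator *Ppargc1a* fell in RC/RC against WT (log2 fold changes −0.90 and −0.73, edgeR adjusted p = 0.0130 and 0.0475). *Ppara* was at 85.5, 101, 76.9 and 91.6 CPM in WT, at 55.2, 31.2, 45.5 and 57.8 CPM in RC/RC and at 75.1, 77.7, 77.8 and 72.6 CPM in RC/RC:*Casp1*KO, so that RC/RC lay below both other groups. It rose in RC/RC:*Casp1*KO compared with RC/RC (0.66, edgeR adjusted p = 0.0421), as did *Ppargc1b* (1.03, edgeR adjusted p = 0.0194), which was also higher than in WT (0.69, edgeR adjusted p = 0.0483). Of the other mitochondrial transport genes, *Tspo* and *Tomm22* fell in RC/RC:*Casp1*KO compared with RC/RC (−0.56 and −0.44, edgeR adjusted p = 0.0454 and 0.0441), and none of 23 was called in either comparison with WT. Without RC139, *Ppara* was still called in both comparisons (−0.77 and 0.53, edgeR adjusted p = 0.0116 and 0.0372). The calls with RC/RC of *Ppargc1a*, *Ppargc1b*, *Tspo* and *Tomm22* were lost without it (edgeR adjusted p = 0.0967, 0.0524, 0.107 and 0.107). *Vdac1*, a pore of the outer membrane with the most reads of that list, was not called.

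Segments of the nephron differ in mitochondrial content, so their markers are given beside the carriers. Of 10 proximal tubule genes, *Cubn* and *Slc5a2* fell in RC/RC against WT, and *Cubn* and *Lrp2* rose in RC/RC:*Casp1*KO compared with RC/RC. Their sum was 12002, 14511, 16925 and 18072 CPM in WT, then 9161, 6482, 10002 and 13669 CPM in RC/RC and 14783, 14122, 16503 and 14285 CPM in RC/RC:*Casp1*KO, with most reads on *Slc34a1*. The RC/RC mice were low as a group and overlapped WT at 1 mouse. Of the distal convoluted tubule, *Pvalb* and *Slc12a3* fell in RC/RC against WT and *Slc12a3* rose in RC/RC:*Casp1*KO compared with RC/RC, of the podocyte *Nphs1* fell in RC/RC against WT, and no gene of the thick ascending limb, principal cell, intercalated cell or endothelial lists was called. Without RC139, 26 of the 32 marker calls in RC/RC against WT were kept, and *Cubn*, *Pdgfra*, *Cd3g*, *Cd79b* and *Ms4a1* were among those lost. Of the 10 marker calls in RC/RC:*Casp1*KO compared with RC/RC, 3 were kept without it, those of *Cubn*, *Lrp2* and *Dcn*. The part of these shifts in the results for the carriers was not tested.

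The scaling between libraries bears on small shifts shared by many members. With library size alone in place of TMM factors, the median over all genes moved from 0.01 to 0.14 in RC/RC:*Casp1*KO against WT, and the members' median turned from −0.09 to 0.04 with it. In RC/RC against WT the members' median was −0.10 and that of all genes 0.08, and 1 of 45 members was called higher and 1 lower, against 10.7% and 1.73% of all genes. The split of all called genes into higher and lower went from 1487 and 484 to 1634 and 263 in RC/RC against WT, from 1116 and 681 to 814 and 179 in RC/RC:*Casp1*KO compared with RC/RC, and from 174 and 137 to 281 and 71 in RC/RC:*Casp1*KO against WT.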

How the data were processed

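Per the labels, poly(A) RNA from mouse kidney was sequenced, and the submitters' processing notes name the build mm10, CASAVA 1.8 and STAR with no role. The counting tool, annotation and strand setting are not given in the sources used here. The authors deposited 1 table of 35275 genes with raw read counts per gene and mouse, not normalized, and gene coordinates and lengths. Its FPKM columns, group means and the authors' own fold changes, p-values and adjusted p-values were not used. Columns name the group of a mouse and not its replicate number or sex. There were 0 unmapped columns.

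Counts were tested with edgeR 4.0.16 (R 4.3.3), quasi-likelihood test, TMM factors and filterByExpr, in fits of the 8 mice of each pair of groups, with Benjamini-Hochberg adjustment over all genes tested and calls at adjusted p under 0.05. SE was taken as the fitted log2 value over the root of its F statistic. For CPM and FPKM, TMM factors came from all 12 libraries together, and 1 read was worth 0.0382 to 0.0554 CPM. None of the 18 same-group pairs of mice had counts that agreed within sampling noise (chi-square over its degrees of freedom 15.7 to 128). The labels do not say more of how the mice of a group were related. The code was tested on simulated data. The RC/RC mice enter 2 of the comparisons, as do the WT and the RC/RC:*Casp1*KO mice. Near copies were sought with BLAST in GENCODE M39 transcripts (95% identity, 100 bases or more, either strand), and 37 of the 51 members had one, 31 of them with the matching gene in the table. All 51 members overlapped their RefSeq GRCm38.p6 position.

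Members, lists and tests were chosen with earlier results of these data known. Genes named are called members, the 6 highest by FPKM in WT, the most abundant per role by reads, those in no fit, members of 8 related pairs, *Casp1*, *Pkd1*, and called or most abundant list genes; *Slc25a1*, *Slc25a14*, *Slc25a21*, *Slc25a30*, *Slc25a43*, *Xist* and *Ddx3y* were named after their values were seen, as were overlapping or near-copy genes. Alternatives were DESeq2 1.42.0, RLE factors, library size alone, at least 1 count, at least 10 counts in every mouse, 1 fit of 12 mice, 1 surrogate variable (sva 3.50.0), omission of mitochondrially encoded genes, and leaving out each mouse. Single results of 1 called member and of some list genes are not reported here, though counts and medians include them. A planned comparison of protein sequences was not run.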

Additional observations from a re-analysis of the deposited data

Results flagged for a closer look

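The value of 1 mouse stood far from the other mice of its group, by the gap to the nearest mouse relative to the range of the 4 mice. *Slc25a24* in WT mouse B6_6 was at 5.28 CPM, against 7.29 to 7.77 CPM in the other 3 mice. Of 78 groups of 4 tested (26 members in 3 groups), 1 was marked, and chance marks about 1 in 20.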

How the results depend on the processing

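Over 16 alternatives (15 for *Slc25a18*), 5 of the 11 calls were kept under all: *Slc25a24* and *Slc25a25* in RC/RC against WT, and *Mpc1*, *Slc25a27* and *Slc25a37* in RC/RC:*Casp1*KO compared with RC/RC. All alternatives used the same *Mpc1* counts, so they cannot address reads shared with *Mpc1-ps*, and the reservation on *Mpc1* remains. No call changed sign. With library size alone, *Slc25a37* in RC/RC against WT and *Slc25a24* and *Ucp2* in RC/RC:*Casp1*KO compared with RC/RC lost their calls, and with 1 fit of 12 mice *Slc25a18* did; the losses on leaving out a mouse stand beside each result. The cause was not tested. Leaving out a mouse also makes its group smaller, and this was not separated from the values of that mouse. Members called in RC/RC against WT fell from 4 to 2 of 45 with library size alone, when 10.7% of all genes were called higher and 1.73% lower. All genes called went from 1971 to 3018 (DESeq2) in RC/RC against WT, from 1797 to 993 (library size alone) and 3182 (DESeq2) in RC/RC:*Casp1*KO compared with RC/RC, and from 311 to 167 (at least 10 counts), 1347 (1 surrogate variable) and 1390 (DESeq2) in RC/RC:*Casp1*KO against WT. Leaving out each mouse gave 1162 to 2440, 438 to 2789 and 108 to 547 genes and 2 to 5, 3 to 7 and 0 to 2 members in the same order, with the lowest values without B6_6, RC140 and B6_6 for genes.

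Over all tested members, library size alone turned the sign of 5, 1 and 13 in the 3 comparisons, and leaving out a mouse that of 10, 17 and 10. No called value was among them. Over all alternatives, the members turned had log2 fold changes, in the fits used for calls, of at most 0.15, 0.31 and 0.090 in size. For the members named by the rule, those turned had log2 fold changes of at most 0.13 in size. In RC/RC against WT they were *Mpc2* with RLE factors (−0.013) and DESeq2 (−0.015), and with library size alone *Slc25a10* (0.050), *Slc25a11* (0.018) and *Slc25a13* (0.0076). In RC/RC:*Casp1*KO compared with RC/RC it was *Slc25a46*, with RLE factors (0.011), library size alone (0.049), at least 1 count (0.0095), at least 10 counts (0.0051), 1 fit of 12 mice (0.0079), no mitochondrially encoded genes (0.021) and DESeq2 (0.0027). In RC/RC:*Casp1*KO against WT they were, with library size alone, *Slc25a13* (0.11), *Slc25a20* (0.042), *Slc25a23* (0.074), *Slc25a28* (0.055) and *Slc25a37* (0.097), and with 1 surrogate variable *Slc25a37* (0.0076).

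Leaving out each mouse, the ranges of named members that crossed 0 were, in RC/RC against WT, −0.12 to 0.091 for *Mpc2*, −0.19 to 0.11 for *Slc25a10*, −0.24 to 0.026 for *Slc25a13*, −0.046 to 0.20 for *Slc25a39* and −0.17 to 0.20 for *Slc25a4*. In RC/RC:*Casp1*KO compared with RC/RC they were −0.057 to 0.21 for *Slc25a13*, −0.033 to 0.31 for *Slc25a15*, −0.29 to 0.034 for *Slc25a25*, −0.12 to 0.013 for *Slc25a3*, −0.26 to 0.061 for *Slc25a33* and −0.040 to 0.049 for *Slc25a46*. In RC/RC:*Casp1*KO against WT they were −0.078 to 0.031 for *Slc25a13*, −0.20 to 0.056 for *Slc25a23* and −0.17 to 0.10 for *Slc25a37*. No paired analysis was possible because the columns carry a mouse number and no replicate number. At this depth the 5 members in no fit could not be tested.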
